A study of Mus musculus with 12 samples.

Results

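Cultured mouse fibroblasts in 4 conditions were examined for the mRNA of Abca4, Ptpn5, Ces1g and Chrdl1, genes best known outside immunity that were chosen by their large log2 rises with IL-4 plus IL-13 in these same libraries. These are 4 of the 56941 genes in the count table, found by their symbols, and all 4 passed the filter on low counts that left 14810 genes for testing. The cells were wild-type 3T3-L1, a clonal mouse embryonic fibroblast line that can be turned into adipocytes, so every library came from 1 line. Cells were left untreated (control), given IL-4 and IL-13 at 50 ng/mL each (IL-4/13), given TNF-α at 20, IL-17A at 50 and IL-1β at 0.5 ng/mL (Inf), or given all 5 cytokines at those doses (IL-4/13 + Inf), each for 24 hours. There were 3 libraries per condition, 12 in all. The sources used here do not say whether the 3 came from separate cultures, so a p-value measures only the spread between these libraries, which may be technical.

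IL-4 and IL-13 bind receptors that share the IL-4Rα chain and act mainly through the transcription factor STAT6, while TNF-α, IL-17A and IL-1β act largely through NF-κB and MAP kinases. The 4 genes are known for different functions. Abca4 encodes a transporter that moves retinoid-lipid conjugates across the disc membranes of photoreceptors. Ptpn5 encodes STEP, a tyrosine phosphatase of neurons that dephosphorylates MAP kinases and the kinases FYN and PYK2. Ces1g encodes a carboxylesterase of the liver that hydrolyses lipid esters, and Chrdl1 encodes chordin-like 1, a secreted protein that binds bone morphogenetic proteins (BMPs) and holds them from their receptors.

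Because the IL-4/13 responses chose the genes, those responses are described below with their standard errors and no test. The comparison that the choice did not use, the mean effect of Inf over cells with and without IL-4/13, was tested. It draws on the same libraries. Where conditions differ in precision, as at low counts, its error is not fully separate from that of the responses that chose the genes.

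The promoters are shown because the genes rose under the same cytokines. Promoter windows from RefSeq (GRCm38.p6) are given for Abca4, Ces1g and Ptpn5, the last with 2 start sites. The reference used held no window for Chrdl1, so its promoter was not searched. Each window holds 250 bases before and 50 after the start, 5′ to 3′ on the gene's strand, and the capitals mark the only matches to the 4 motifs searched on both strands.

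Abca4, chr3:122044210-122044509, plus strand: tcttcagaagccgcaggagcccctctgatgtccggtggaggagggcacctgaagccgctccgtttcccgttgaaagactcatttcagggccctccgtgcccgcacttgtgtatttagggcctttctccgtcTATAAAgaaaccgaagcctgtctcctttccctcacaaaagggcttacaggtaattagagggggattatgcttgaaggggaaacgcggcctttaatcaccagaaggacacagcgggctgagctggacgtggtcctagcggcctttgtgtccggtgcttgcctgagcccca

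Ptpn5, upstream start, chr7:47133635-47133934, minus strand: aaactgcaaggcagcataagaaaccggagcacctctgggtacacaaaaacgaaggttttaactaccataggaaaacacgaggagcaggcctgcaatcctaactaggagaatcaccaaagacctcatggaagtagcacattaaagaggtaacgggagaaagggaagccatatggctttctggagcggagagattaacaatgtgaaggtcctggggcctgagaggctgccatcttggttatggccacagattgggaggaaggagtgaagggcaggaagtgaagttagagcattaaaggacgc

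Ptpn5, downstream start, chr7:47132549-47132848, minus strand: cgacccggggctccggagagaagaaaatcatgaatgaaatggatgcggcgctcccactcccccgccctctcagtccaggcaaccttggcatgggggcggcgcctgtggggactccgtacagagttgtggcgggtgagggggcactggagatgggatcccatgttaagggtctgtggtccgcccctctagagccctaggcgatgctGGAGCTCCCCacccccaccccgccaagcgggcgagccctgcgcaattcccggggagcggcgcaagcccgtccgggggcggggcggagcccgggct

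Ces1g, chr8:93337160-93337459, minus strand: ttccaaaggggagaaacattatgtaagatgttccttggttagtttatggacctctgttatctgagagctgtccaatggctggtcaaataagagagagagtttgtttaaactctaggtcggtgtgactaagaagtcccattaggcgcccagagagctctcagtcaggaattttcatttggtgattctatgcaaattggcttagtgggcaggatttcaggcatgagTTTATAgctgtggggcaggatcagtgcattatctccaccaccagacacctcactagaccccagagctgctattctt

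The STAT6 site, TTC and GAA set 4 bases apart, and the site of other STAT proteins, the same letters set 3 bases apart, were found in none of the 4 windows. They occurred in 6.95% and 8.30% of 32851 promoter windows of the same length, and both patterns can overlap. The TATA box (TATAAA) matched in the Abca4 window 119 bases before the start and, on the opposite strand, in the Ces1g window 26 bases before it, against 13.6% of all windows. The NF-κB consensus matched once, 45 bases before the downstream start of Ptpn5, against 8.46% of all windows. A match here is a description of the letters, and the absence of one says only that they were not in these 300 bases. The windows also differed in base composition, with a GC content of 56.3% for Abca4, 48.7% and 69% for the upstream and downstream starts of Ptpn5, and 45.0% for Ces1g.

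Library totals ranged from 13446005 to 20775769 counts. Levels are given as counts per 1000000 counts (CPM), scaled by edgeR's TMM factors, which lay between 0.986 and 1.02. Correlations of log2 CPM between libraries of 1 condition ranged from 0.991 to 0.993, and the highest between conditions was 0.989. The fibroblast label was checked with 10 markers, including Col1a1, Pdgfra and Thy1, all of which passed the count filter. Their summed level was 16684 to 19448 CPM in the controls, 14344 to 15138 with IL-4/13, 13834 to 15258 with Inf and 11768 to 12138 with IL-4/13 + Inf. The sum is ruled by Col1a1, Col1a2, Vim and Fn1, and single markers moved otherwise: with Inf, Dcn averaged 1756 CPM against 103 in controls, Pdgfra 385 against 196 and Pdgfrb 481 against 269. The part of these shifts in the levels below was not tested. In such bulk libraries, fewer cells expressing a gene and less RNA per cell cannot be told apart.

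Abca4 was at 16 counts or fewer in every library without IL-4/13. The 3 control libraries held 1, 8 and 8 counts, or 0.0571, 0.496 and 0.480 CPM. IL-4/13 libraries held 93, 102 and 84 counts, or 4.98, 6.61 and 6.17 CPM. Every IL-4/13 library lay above every control library. With Inf alone, the libraries held 12, 16 and 13 counts, or 0.798, 0.779 and 0.788 CPM. With IL-4/13 + Inf they held 111, 86 and 95 counts, or 5.50, 4.83 and 6.41 CPM. The groups given IL-4/13, with or without Inf, overlapped, while the Inf libraries lay above all 3 controls on few counts. Mean levels were 0.344 ± 0.249 CPM in controls, 5.92 ± 0.842 with IL-4/13, 0.788 ± 0.00913 with Inf and 5.58 ± 0.791 with IL-4/13 + Inf (SD, n = 3 each).

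Ptpn5 stood at a different level in each of the 4 conditions. The control libraries were at 2.00, 2.29 and 1.80 CPM, and the Inf libraries at 5.52, 3.99 and 4.001. With IL-4/13 they were at 16.2, 18.8 and 17.6 CPM, and with IL-4/13 + Inf at 26.6, 25.1 and 28.9. None of the 4 groups overlapped, with controls lowest, then Inf, then IL-4/13, and all 5 cytokines highest. Their means were 2.03 ± 0.249, 4.50 ± 0.877, 17.5 ± 1.31 and 26.8 ± 1.92 CPM in that order (SD, n = 3 each). The underlying counts ran from 30 to 37 in controls and from 428 to 536 with all 5 cytokines.

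Ces1g had the same order of conditions, and per kilobase of exon it had the highest mean level of the 4 genes in each condition, from 1.63 CPM per kb in controls to 26.5 with all 5 cytokines. The control libraries were at 4.51, 3.47 and 3.72 CPM, and the Inf libraries at 6.05, 7.31 and 8.43. With IL-4/13 they were at 31.7, 31.8 and 34.3 CPM, and with IL-4/13 + Inf at 59.01, 64.98 and 65.7. No group overlapped its neighbour. The means were 3.90 ± 0.544 in controls, 7.26 ± 1.19 with Inf, 32.6 ± 1.45 with IL-4/13 and 63.2 ± 3.66 CPM with IL-4/13 + Inf (SD, n = 3 each). The mean with all 5 cytokines was 1.94 times that with IL-4/13, and the corresponding ratio for Ptpn5 was 1.53.

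Chrdl1 went up with IL-4/13 and down with Inf. The control libraries were at 4.40, 4.96 and 3.48 CPM, and the IL-4/13 libraries at 21.2, 22.7 and 15.9. With Inf they were at 0.731, 0.828 and 0.909 CPM, resting on 11, 17 and 15 counts, and with IL-4/13 + Inf at 7.54, 7.36 and 4.25. IL-4/13 was highest, the groups with all 5 cytokines and with none overlapped, and Inf lay below all others. Means were 4.28 ± 0.748 in controls, 19.9 ± 3.61 with IL-4/13, 0.823 ± 0.0893 with Inf and 6.38 ± 1.85 CPM with IL-4/13 + Inf (SD, n = 3 each). Replicate 3 was the lowest library of every group except Inf, where it was the highest.

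**Figure D1:**
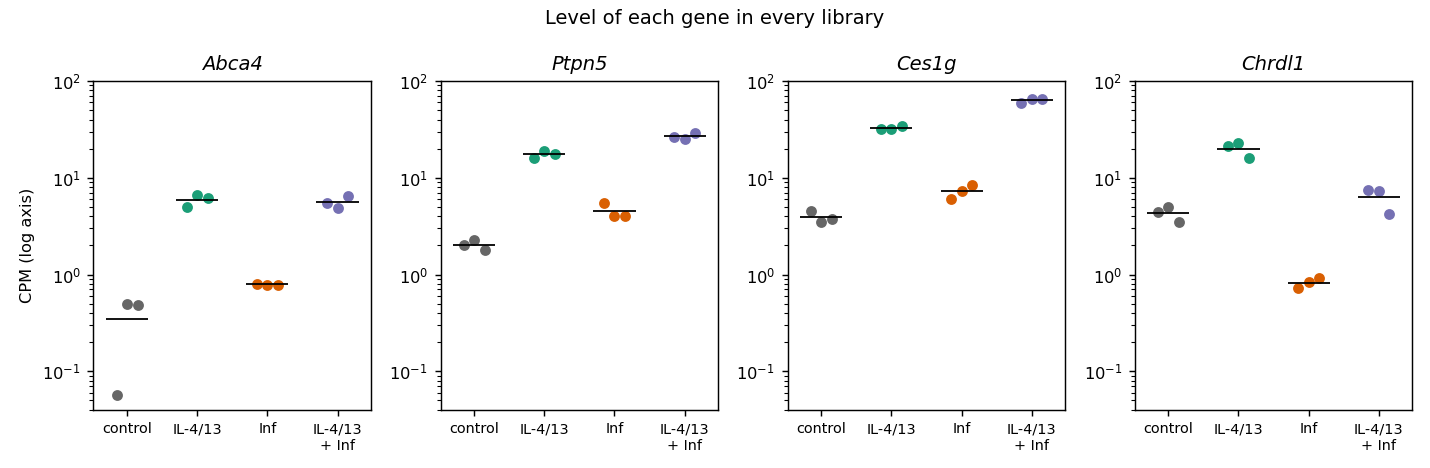
Level of Abca4, Ptpn5, Ces1g and Chrdl1 in CPM on a log axis, with 1 point per library in replicate order and a line at the mean of the 3 libraries of a condition. Ptpn5 and Ces1g stand in 4 separate steps, Abca4 has a control library at 0.0571 CPM from 1 count, and Chrdl1 is lowest with Inf.

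Per kilobase of exon, the induced levels remained modest for 3 of the 4 genes. The length used was that of all annotated exons of a gene joined. It was 12022 bases for Abca4, 5794 for Ptpn5, 6758 for Chrdl1 and 2388 for Ces1g. Their longest annotated transcripts had 7263, 3296, 4096 and 2388 bases in that order. The joined length thus sets the first 3 lower against Ces1g than transcript length would. Percentiles are among the 14614 tested genes with an exon length. With IL-4/13 alone, Abca4 was at 0.493 CPM per kb, percentile 11.7, up from 0.0287 and percentile 0.684 in controls. Ptpn5 was at 3.03 CPM per kb (percentile 35.1) and Chrdl1 at 2.95 (percentile 34.7). Ces1g was at 13.6 CPM per kb, percentile 70.3, and at 26.5, percentile 83.4, with IL-4/13 + Inf. Chrdl1 with Inf alone was at 0.122 CPM per kb, percentile 2.03. Of the 4 genes, Ces1g was the only one to pass the median of the tested genes on this scale in any condition. Percentiles by transcript length were not computed.

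The response to IL-4/13 without Inf was largest for Abca4 and smallest for Chrdl1. On the log2 scale of the edgeR fit it was 4.09 (SE 0.32) for Abca4, 3.10 (SE 0.15) for Ptpn5, 3.05 (SE 0.11) for Ces1g and 2.22 (SE 0.18) for Chrdl1. In the presence of Inf it was 2.81 (SE 0.27), 2.59 (SE 0.12), 3.11 (SE 0.096) and 2.96 (SE 0.27) in the same order. A gene was called where the adjusted p was under 0.05 and the absolute log2 change exceeded 0.25. Of all tested genes, 5.35% were called with IL-4/13 alone (2.78% higher) and 14.6% with IL-4/13 on top of Inf (7.55% higher). In each comparison, all 3 libraries with IL-4/13 lay above all 3 without for each of the 4 genes, as did 13.4% and 18.3% of tested genes. These counts follow from how the genes were chosen.

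By log2 change among all 14810 tested genes, Abca4, Ptpn5, Ces1g and Chrdl1 ranked 10, 19, 20 and 40 with IL-4/13 alone and 15, 17, 10 and 13 with Inf present. A narrower ranking shows the edge of the choice. Ranked were genes called higher, with libraries that did not overlap and an average of 5 CPM or more in either group. Among 355 such genes with IL-4/13 alone, Abca4, Ptpn5 and Ces1g held positions 3, 4 and 5, with complement C3 next at 2.84 and Chrdl1 at position 13. With Inf present, Ces1g, Chrdl1 and Abca4 held positions 3, 4 and 5 of 1007, and Ptpn5 followed at position 6.

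The estimated difference between the IL-4/13 responses with and without Inf was not of 1 sign among the genes, and it was not tested. The difference, response with Inf minus response without, was −1.28 (SE 0.49) for Abca4, −0.52 (SE 0.21) for Ptpn5, 0.062 (SE 0.16) for Ces1g and 0.74 (SE 0.35) for Chrdl1. For Abca4 it rests in part on a control library of 1 count: without that library it was −0.77 (SE 0.45). In CPM, the gain from IL-4/13 was 5.58 (SE 0.51) without Inf and 4.80 (SE 0.46) with it for Abca4. Ptpn5 gained 15.5 (SE 0.77) and 22.3 (SE 1.2) CPM, and Ces1g 28.7 (SE 0.90) and 56.0 (SE 2.2). Thus a nearly equal fold for Ces1g came with a larger absolute gain in the presence of Inf. Chrdl1 went the other way, gaining 15.7 (SE 2.1) CPM without Inf and 5.56 (SE 1.1) with it, although its fold was larger with Inf.

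The effect of Inf itself divided the genes. Averaged over cells with and without IL-4/13, Inf raised Ptpn5 by 0.87 on the log2 scale (SE 0.10, adjusted p = 2.1e-08 by edgeR's quasi-likelihood test) and Ces1g by 0.93 (SE 0.080, adjusted p = 2.7e-11). Chrdl1 fell by 1.99 (SE 0.16, adjusted p = 1.8e-10). Abca4 did not pass the threshold, with 0.56 (SE 0.25, 95% interval 0.053 to 1.06, adjusted p = 0.058 by edgeR). The Abca4 value was 0.30 without control replicate 1, and the gene was called without control replicate 2 (0.74, adjusted p = 0.032 by edgeR), control replicate 3 (0.72, 0.036) or IL-4/13 + Inf replicate 2 (0.61, 0.048). Thus 2 of the 4 genes were called higher and 1 lower, where 30.6% of all 14810 tested genes were called, 16.6% higher and 14.0% lower. By the size of the mean effect of Inf, Chrdl1 ranked 14751 from the top of 14810 genes and Ces1g ranked 792.

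Split by IL-4/13, the effect of Inf on Ptpn5 was 1.13 (SE 0.18) without and 0.61 (SE 0.10) with IL-4/13 on the log2 scale. For Ces1g the values were 0.90 (SE 0.14) and 0.96 (SE 0.080), and for Chrdl1 −2.36 (SE 0.29) and −1.63 (SE 0.17). For Abca4 they were 1.20 (SE 0.45) and −0.084 (SE 0.20), the latter with overlapping libraries. These comparisons share libraries with those of IL-4/13, so they are given as values. Without IL-4/13, all 4 genes had non-overlapping libraries between control and Inf, 3 higher and 1 lower, against 23.5% of tested genes higher and 24.5% lower. With IL-4/13, Ptpn5 and Ces1g were higher and Chrdl1 lower without overlap, against 23.5% and 23.9%. Compared with untreated cells, Chrdl1 with all 5 cytokines differed by 0.60 (SE 0.20) with overlapping libraries, while Abca4, Ptpn5 and Ces1g were 4.01, 3.72 and 4.01 higher.

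**Figure D2:**
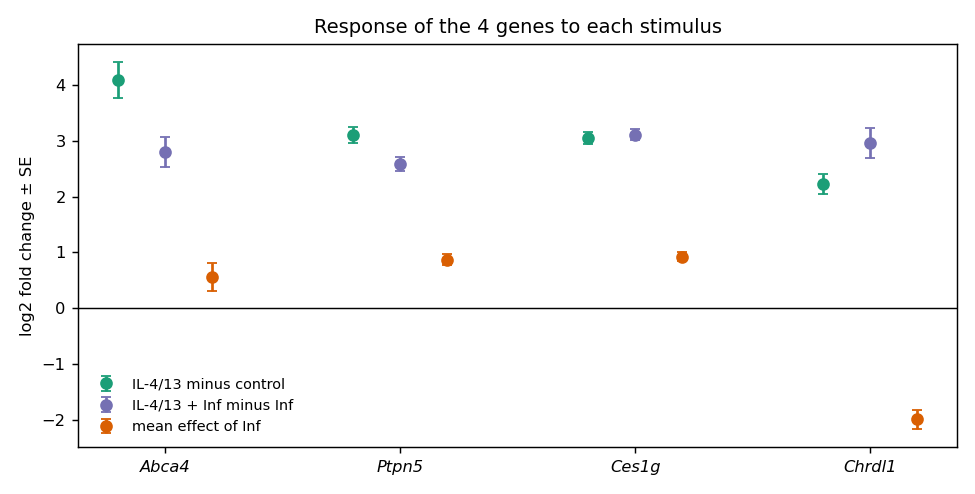
Log2 fold change with its standard error for each gene in the IL-4/13 comparison without Inf, the IL-4/13 comparison with Inf, and the mean effect of Inf. All 8 IL-4/13 values lie above 2.2, while the Inf values are 0.56, 0.87 and 0.93 for Abca4, Ptpn5 and Ces1g and −1.99 for Chrdl1.

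The pattern of each gene across the 12 libraries was compared with every tested gene by the root mean square difference of centred log2 levels. This difference includes the size of the rise with IL-4/13, by which Abca4, Ptpn5 and Ces1g were chosen. Nearness among them therefore follows in part from that choice, and how large a part was not tested. Ptpn5 and Ces1g were close to each other at 0.312. Nearest to Ptpn5 was Rnf19b, an E3 ubiquitin ligase gene, at 0.279, with mean levels of 82.1 CPM in controls, 436 with IL-4/13, 152 with Inf and 756 with all 5 cytokines. Nearest to Abca4 were Ptpn5 (0.555), Ces1g (0.654) and Rnf19b (0.705). Nearest to Ces1g after Ptpn5 were the pseudogene Sprr2j-ps (0.386) and Rnf19b (0.388). Sprr2j-ps was near the floor, at 0.0781 CPM in controls, 0.928 with IL-4/13, 0.0950 with Inf and 1.78 with all 5 cytokines. It was not among the 3 nearest to Ces1g by Pearson's r. By this distance Rnf19b was among the 3 nearest genes of Abca4, Ptpn5 and Ces1g, but by Pearson's r the 3 nearest to Abca4 were Tmem171, Ptpn5 and Paics. Azin2, an antizyme inhibitor gene of polyamine metabolism, was the third for Ptpn5, at 0.485.

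Chrdl1 had other neighbours and lay 1.46 to 1.49 from the other 3 genes. Its nearest were Sprr1a, a cornified envelope gene (0.546), Masp1, a serine protease gene of the lectin complement pathway (0.556), and Edn1, which encodes the vasoconstrictor endothelin-1 (0.620). Sprr1a was near the floor with Inf, at a mean of 0.154 CPM, and was not among the 3 nearest by Pearson's r. Masp1 averaged 55.3 CPM in control, 169 with IL-4/13, 20.99 with Inf and 75.3 with IL-4/13 + Inf. Edn1 averaged 7.67, 38.5, 3.94 and 23.6 CPM in the same order. Both followed Chrdl1 in being highest with IL-4/13 and lowest with Inf. Measured by Pearson's r in place of distance, 6 of the 12 nearest genes were the same.

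**Figure D3:**
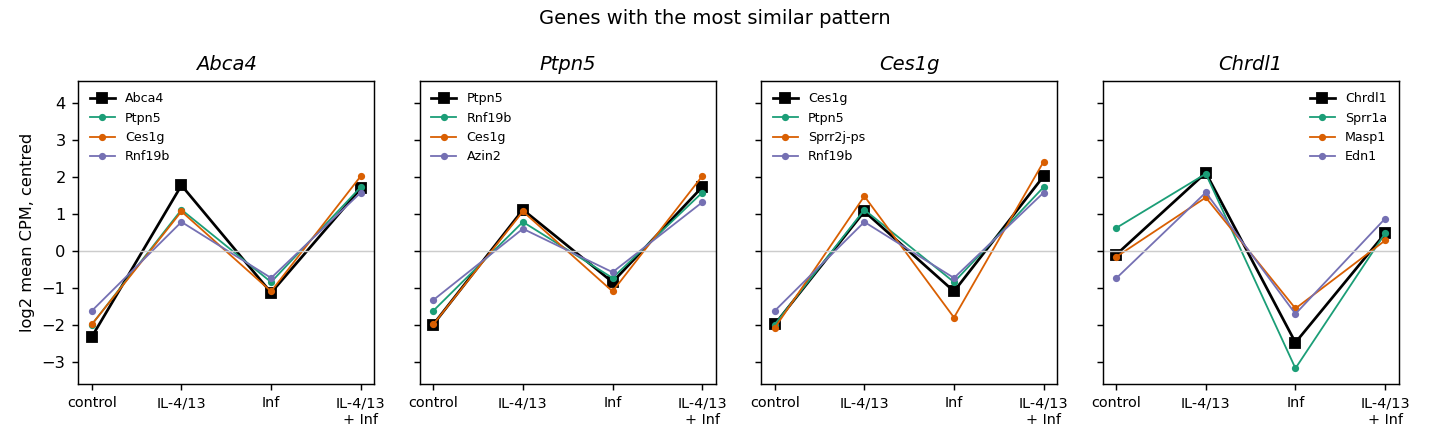
Log2 mean CPM of each gene (black squares) and the 3 genes with the most similar pattern (coloured circles), centred on their mean over the 4 conditions. Abca4, Ptpn5 and Ces1g are highest with IL-4/13 or IL-4/13 + Inf and lowest in controls, while Chrdl1 and its neighbours are lowest with Inf.

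The relatives of each gene, which share its family or its pathway, were read as lists. The IL-4/13 receptors and the STAT6 pathway made a further list. Across 9 lists holding 153 genes, 95 were tested. With IL-4/13 alone 3 were called higher and 8 lower, and with IL-4/13 on top of Inf 11 and 16, against 2.78% higher and 2.57% lower of all tested genes and 7.55% and 7.00%. The mean effect of Inf was called higher for 40 of the 95 and lower for 15, where 16.6% and 14.0% of all tested genes were called. The median log2 change of the 95 was −0.038 with IL-4/13 alone, −0.044 with IL-4/13 on Inf and 0.13 for the mean effect of Inf. That of all tested genes in these comparisons lay between −0.0098 and 0.0048.

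For Abca4, 7 of 15 genes of the ABCA family of lipid transporters were tested. With IL-4/13 alone edgeR called 0 of them, with 0 higher and 1 lower at an unadjusted p under 0.05, and DESeq2 also called 0. With Inf present, Abca1, the cholesterol exporter, fell by 1.24 on the log2 scale (SE 0.097, adjusted p = 2.9e-10 by edgeR), from a mean of 50.5 to 21.4 CPM. Abca8b fell by 0.38 (adjusted p = 0.048 by edgeR), and 0 rose, with 1 higher at an unadjusted p under 0.05 and 1 higher by DESeq2. The fall of Abca8b was not called by DESeq2, nor in 6 of the 12 fits that left out a library, those without control replicate 3, IL-4/13 replicate 1, Inf replicate 2 or any library of IL-4/13 + Inf. The mean effect of Inf was called higher for 5 of the 7, where 16.6% of all tested genes were. Of 17 tested genes of retinoid handling, 0 rose with IL-4/13 alone (1 higher at an unadjusted p under 0.05 and 0 by DESeq2), while the retinol dehydrogenase Rdh10 fell by 0.49 and the dehydrogenase Dhrs9 fell by 0.39. With Inf present, the retinol dehydrogenase Rdh5 rose by 1.21 (adjusted p = 0.0056 by edgeR) on at most 65 counts a library. There 3 were called lower, among them Rdh10, which fell by 0.39, and Dhrs3, which fell by 0.43. The call of Dhrs3 was lost without Inf replicate 1 or 3 or IL-4/13 + Inf replicate 1 or 2.

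For Ptpn5, 13 of 17 phosphatases of its class were tested. With IL-4/13 alone edgeR and DESeq2 called 0, with 2 higher and 1 lower at an unadjusted p under 0.05. With Inf present 2 rose: Ptpn22, a phosphatase of lymphocyte signalling, by 0.86 (SE 0.14, adjusted p = 2.7e-05 by edgeR) and Ptpn4 by 0.33 (adjusted p = 0.0056). Ptpn22 averaged 2.33 CPM in controls, 3.43 with IL-4/13, 5.80 with Inf and 10.6 with IL-4/13 + Inf. The closest relatives of Ptpn5 itself, Ptpn7 and Ptprr, reached at most 6 and 11 counts in a library and were not tested. Of 5 tested substrates of STEP, 0 rose in either comparison (1 higher at an unadjusted p under 0.05 in each and 0 by DESeq2). The kinase gene Fyn fell by 0.27 and Ptk2b, which encodes PYK2, fell by 0.26 with IL-4/13 alone, and Mapk3, which encodes ERK1, fell by 0.27 with Inf present. None of the 3 calls held in every fit that left out a library. Without control replicate 1 both Fyn and Ptk2b were lost, Fyn also without IL-4/13 replicate 3, Ptk2b also without control replicate 3 or IL-4/13 replicate 1, and Mapk3 without IL-4/13 + Inf replicate 2.

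For Ces1g, 4 of 18 other carboxylesterases were tested. With IL-4/13 alone edgeR and DESeq2 called 0 of them, and 0 had an unadjusted p under 0.05. With Inf present Ces1f, the neighbouring gene on chromosome 8, rose by 2.27 (SE 0.39, adjusted p = 4.5e-05 by edgeR), and Ces2g rose by 0.37 (adjusted p = 0.0087), a call lost without IL-4/13 + Inf replicate 2. The Ces1f counts were 6, 1 and 2 in controls, 8, 3 and 5 with IL-4/13, 5, 21 and 6 with Inf and 51, 49 and 53 with all 5 cytokines. Only the libraries with IL-4/13 + Inf stood apart. Ces1g shared 39 of its 2339 stretches of 50 bases (1.67%) with 6 other genes, 10 of them with Ces1f. How reads from such stretches were counted was not examined. Abca4, Ptpn5 and Chrdl1 shared 0% with other genes, and no annotated exon of another gene overlapped any of the 4. Of 10 tested genes of lipid droplets and triglyceride hydrolysis, edgeR and DESeq2 called 0 with IL-4/13 alone (0 higher and 3 lower at an unadjusted p under 0.05). With Inf present 0 rose (2 higher at an unadjusted p under 0.05 and 0 by DESeq2), while the lipid droplet coat genes Plin2 fell by 0.33, Plin3 fell by 0.30 and Plin4 fell by 0.79.

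For Chrdl1, 11 of 17 secreted BMP antagonists were tested. With IL-4/13 alone 0 rose (1 higher at an unadjusted p under 0.05 and 0 by DESeq2). In that comparison 2 were called lower, among them Fstl1, a follistatin-like gene, which fell by 0.26. With Inf present 0 rose by edgeR or DESeq2 (3 higher at an unadjusted p under 0.05), while 5 were called lower. Of these, Nog, which encodes noggin, fell by 1.35 on at most 25 counts a library, Nbl1 fell by 0.98, Bmper fell by 0.54 and Fstl1 fell by 0.27. DESeq2 did not call Nog, whose call was also lost without Inf replicate 2 or 3 or IL-4/13 + Inf replicate 1 or 3. The call of Fstl1 was lost without IL-4/13 replicate 2 or 3 in the first comparison and without Inf replicate 2 in the second. The mean effect of Inf was called higher for 8 of the 11, against 16.6% of all tested genes, among them Fst, which encodes follistatin, with 1.40 and Grem1, which encodes gremlin 1, with 0.80, and lower for 2, Chrd, which encodes chordin, with −0.96, and Twsg1 with −0.25. The calls of Twsg1 and of Dand5, a member of the 8, held in 5 of the 12 fits that left out a library. The paralog Chrdl2 reached at most 1 count. Among 17 tested BMP ligands, receptors and targets, 0 rose with IL-4/13 alone (0 at an unadjusted p under 0.05 and 0 by DESeq2), while the receptor gene Acvr2a fell by 0.36 and the BMP target Id1 fell by 0.28. With Inf present Acvr2a rose by 0.41 and the target Id2 rose by 0.83, while the inhibitory Smad6 fell by 0.73 and the target Id3 fell by 0.54. The call of Id1 was lost without control replicate 1 or IL-4/13 replicate 1 or 2, and that of Smad6 without Inf replicate 3 or IL-4/13 + Inf replicate 3.

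Of 11 genes of the IL-4/13 receptors and the STAT6 pathway, all tested, 3 rose with IL-4/13 alone, where 2.78% of all tested genes were called higher. The decoy receptor gene Il13ra2 rose by 4.12, and the feedback inhibitor genes Cish and Socs1 rose by 2.16 and 1.09. With Inf present 4 rose, against 7.55% of all tested genes, Il13ra2 by 1.96, Cish by 2.43, Socs1 by 0.89 and the shared receptor chain gene Il2rg by 0.76. The call of Il2rg was lost by DESeq2 and held in 7 of the 12 fits that left out a library. The mean effect of Inf was called higher for 9 of the 11, against 16.6% of all tested genes.

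**Figure D4:**
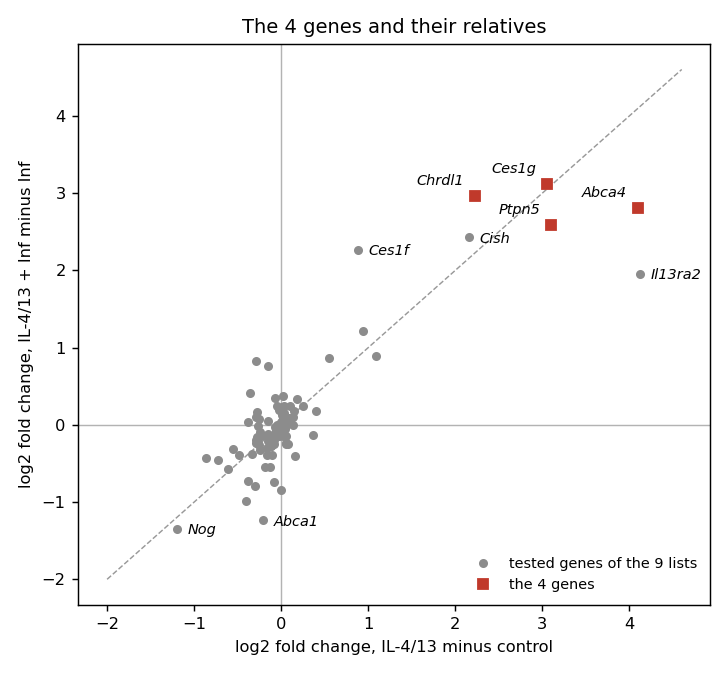
Log2 fold change with IL-4/13 in the absence of Inf (x axis) and in its presence (y axis) for the 4 genes (red squares) and the 95 tested genes of the 9 lists (grey circles), with a dashed line where both are equal. Most relatives lie near 0, while Ces1f is at 0.88 and 2.27 and Abca1 at −0.21 and −1.24. Of the IL-4/13 receptor and STAT6 list, Il13ra2 is at 4.12 and 1.96 and Cish at 2.16 and 2.43.

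Genes next to the 4 on the chromosome were also read, a comparison chosen after the data were seen. Of 8 adjacent protein-coding genes in the GENCODE annotation, 5 were tested. Arhgap29, beside Abca4 on chromosome 3, rose by 0.72 (SE 0.046, adjusted p = 6.4e-13 by edgeR) without Inf. With Inf present it rose by 0.34 (SE 0.046, adjusted p = 1.4e-06 by edgeR). Pak3, beside Chrdl1 on chromosome X, rose by 0.27 (adjusted p = 0.0055 by edgeR) with IL-4/13 alone, a call lost without control replicate 1, and with Inf present its value was −0.20. Gclm beside Abca4 and Tmem86a beside Ptpn5 did not pass the threshold in either comparison.

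Markers of the tissues in which 3 of the genes are usually studied were near the floor. Of 10 photoreceptor markers, 7 had at most 3 counts in every library and Prph2 and Cnga1 were at 0, and their summed level ranged from 0.324 to 1.12 CPM over all libraries. Of 10 neuronal markers, 7 had at most 3 counts, and Drd1, Drd2 and Nefl were at 0, with a summed level of 0.420 to 1.82 CPM. All 10 hepatocyte markers had at most 3 counts, and 6 of them, including Ttr and Hnf4a, were at 0. The 3T3-L1 cells also held few adipocyte markers, with 7 of 10 at no more than 3 counts and a summed level of 37.1 to 56.5 CPM from Fabp4, Lipe and Pparg. Among 10 macrophage markers, 5 had at most 3 counts in every library, with C1qa and C1qb at 0. The filter on low counts was passed by 4. Their summed level was 5.90 to 9.90 CPM, and Csf1r, Mrc1 and Lyz2 reached 75, 64 and 56 counts in a library. Mrc1 averaged 0.181 CPM in controls, 2.11 with Inf and 3.03 with all 5 cytokines. Csf1r went the other way, at 3.54, 2.64 and 2.05 CPM in that order.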

How the data were processed

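PolyA RNA of 3T3-L1 cells was sequenced as a stranded library. Per the labels and the submitters' processing notes, the deposited values are read counts per gene, made by the authors with STAR and featureCounts on GRCm39; versions, annotation and strand setting are not given in the sources used here. The counts were analysed as deposited, with R 4.3.3, edgeR 4.0.16 (quasi-likelihood, robust, TMM) and DESeq2 1.42.0. Genes passing filterByExpr (minimum count 10, total 15) in the 12 libraries entered 1 fit over all 4 conditions, with Benjamini-Hochberg adjustment over all 14810 genes. A gene was called at an adjusted p under 0.05 and an absolute log2 fold change above 0.25. Count precision is limited by depth at low counts. The statistics were tested on simulated data. The members, gene lists and markers were chosen with earlier results of these data known. The named genes are the members, the 3 genes nearest to each by pattern, the listed relatives called in an IL-4/13 comparison and at most 2 of the most abundant, and the edge of the choice. Others named were chosen after their values were seen. Alternatives were DESeq2, other scalings, filters and thresholds, a replicate block and each library left out. Exon lengths, neighbours and shared sequence came from GENCODE M21 (GRCm38), matched by gene identifier, and promoters from RefSeq GRCm38.p6, a build other than that of the counts. Some listed relatives that entered the counts are not reported here by name.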

Additional observations from a re-analysis of the deposited data

Results flagged for a closer look

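Among the 95 tested genes of the 9 lists, 8 responded to IL-4/13 differently with Inf than without by edgeR's test of the interaction. Each comparison had 3 libraries per condition. The share of all tested genes called in the interaction is not given here, so the count of 8 cannot be set against it. The difference, with Inf minus without, on the log2 scale was −1.02 for Abca1 (adjusted p = 4.8e-05 by edgeR), 0.42 for Dhrs9 (0.018), 0.77 for Acvr2a (2.4e-05), 1.12 for Id2 (6.3e-05), −0.42 for Id3 (0.013), −0.33 for Il4ra (0.017), −0.28 for Il13ra1 (0.031) and −2.17 for Il13ra2 (2.4e-06). Those of Abca1, Acvr2a, Id2 and Il13ra2 were called in all 12 fits that left out a library, that of Id3 in 11, those of Dhrs9 and Il4ra in 8 and that of Il13ra1 in 5. Acvr2a went from 43.1 CPM in controls to 33.6 with IL-4/13, and from 26.4 with Inf to 35.3 with IL-4/13 + Inf, so the signs of its responses were opposite. Il13ra2 averaged 0.380 CPM in controls, 6.78 with IL-4/13, 57.6 with Inf and 224 with all 5 cytokines. Il4ra, the shared receptor chain, averaged 52.4, 55.5, 86.5 and 72.8 CPM, and Il13ra1 averaged 58.3, 60.3, 127 and 108 CPM, both in that order of conditions.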

How the results depend on the processing

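The directions of all 4 genes in the IL-4/13 comparisons held in every alternative run, which follows from the large rises they were chosen for. Without Inf, the Abca4 response was 3.58 to 4.45 when a library was left out. The difference of responses for Abca4 ranged from −1.64 to −0.77 in those fits, the last without control replicate 1, and that of Ces1g changed sign, from −0.060 to 0.18. The mean effect of Inf on Abca4 ranged from 0.30, without control replicate 1, to 0.74. It was called without control replicate 2 (0.74, adjusted p = 0.032 by edgeR), control replicate 3 (0.72, 0.036) and IL-4/13 + Inf replicate 2 (0.61, 0.048). At a log2 fold threshold of 1, Ptpn5 (0.87) and Ces1g (0.93) were no longer called, and 0 genes were called higher by that fold in place of 2. Among the listed relatives, the same threshold left 0 lower with IL-4/13 alone, 4 higher and 2 lower with IL-4/13 on Inf, and 14 higher and 3 lower with Inf. A log2 threshold of 0 gave 20 higher with IL-4/13 on Inf and 23 lower with Inf, and a mean of at least 50 counts 7 lower with Inf. Leaving out a library gave 3 to 5 higher with IL-4/13 alone, the most without control replicate 3. Changes in counts at other thresholds follow from the thresholds themselves, and for the others the cause was not tested. Which single relatives and adjacent genes kept their call without each library, and by DESeq2, was read after seeing the data.

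Libraries with the same replicate number did not deviate together, with correlations of their deviations from −0.146 to 0.0543 in 18 pairs and 0 of them over 0.1, so the numbers were not treated as pairs. With the replicate number as a block, the calls with IL-4/13 alone were 388 higher and 329 lower, in place of 412 and 380, and the mean effect of Inf on Abca4 was 0.56 (adjusted p = 0.061 by edgeR). It changed no call among the 4 genes.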
